A study of Mus musculus with 9 samples.

Results

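The growth hormone receptor and STAT5 genes comprise the receptors Ghr and Prlr, the kinase gene Jak2, the transcription factor genes Stat5a and Stat5b, the feedback inhibitor genes Socs2, Socs3 and Cish, and the repressor gene Bcl6. They were chosen by name as known parts of this pathway and not by a rule on measured values, though earlier results of these data were known. A probe set, the group of probes that reads a transcript on the array, was taken when its annotation named a single gene and that gene was on the list. This gave 21 of the 45101 probe sets in the table for 8 of the 9 genes; Prlr was not analysed here. Each gene was read by its brightest probe set over all arrays, as were all 18193 genes tested.

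Expression was measured on Affymetrix Mouse Genome 430 2.0 arrays in 5 hepatocellular carcinomas (TKO_HCC) and 4 normal livers. The tumours had the genotype RbΔ/Δ; p130Δ/Δ; p107+/- and came from mice named triple knockout in the sample titles, 4 months after Ad-Cre, an adenovirus that carries the Cre recombinase, was injected into the spleen. The livers came from wild type adult mice without tumours, and no label gives them a virus, so tumour growth, genotype and viral infection cannot be told apart between the groups. The sources used here give neither strain, sex nor exact age. Whether each sample is its own animal is not stated, so a p-value here covers the variation among these arrays, which may be technical.

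Growth hormone binds its receptor on the hepatocyte surface and activates JAK2, which phosphorylates the receptor and then STAT5A and STAT5B. The phosphorylated STAT5 proteins enter the nucleus and turn on genes such as Igf1, and also Socs2, Socs3 and Cish, whose products damp the signal. In rodents the pituitary releases growth hormone in pulses in males and more continuously in females, and through STAT5 and BCL6 this difference sets much of the sex bias of liver gene expression. These arrays measure RNA, not the phosphorylation that carries the signal.

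STAT5 binds DNA at the palindromic motif TTCNNNGAA, where N is any base, and the windows below show where those letters lie beside the measured genes that hold them. The windows are the 250 bases before each annotated start in RefSeq (GRCm38.p6), and the table had entries for 8 of the 9 genes, all but Socs2, with 14 starts between them. The motif, which reads the same on both strands, was in 4 of these 14 windows, and in 2306 of the 32851 windows in the whole table (7.02%). Of the 7 measured genes searched, Socs3 and Bcl6 held it; the fourth window was at the second start of Prlr, with TTCTAGGAA first reached 110 bases before the start. Each window is written 5′ to 3′ on the strand of the gene, with the motif in capitals.
Socs3, chr11:117969367-117969616, minus strand: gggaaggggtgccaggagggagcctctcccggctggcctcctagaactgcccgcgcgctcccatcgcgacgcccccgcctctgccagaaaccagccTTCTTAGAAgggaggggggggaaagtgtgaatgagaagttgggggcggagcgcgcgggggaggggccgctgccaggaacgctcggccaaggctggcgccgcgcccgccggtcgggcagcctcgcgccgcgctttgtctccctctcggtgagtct
Bcl6 start 1, chr16:23988853-23989102, minus strand: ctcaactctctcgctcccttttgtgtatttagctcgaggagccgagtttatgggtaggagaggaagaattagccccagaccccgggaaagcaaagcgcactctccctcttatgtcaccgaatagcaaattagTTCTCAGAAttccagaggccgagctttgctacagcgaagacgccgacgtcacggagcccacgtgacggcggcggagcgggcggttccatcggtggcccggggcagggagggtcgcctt
Bcl6 start 2, chr16:23981284-23981533, minus strand: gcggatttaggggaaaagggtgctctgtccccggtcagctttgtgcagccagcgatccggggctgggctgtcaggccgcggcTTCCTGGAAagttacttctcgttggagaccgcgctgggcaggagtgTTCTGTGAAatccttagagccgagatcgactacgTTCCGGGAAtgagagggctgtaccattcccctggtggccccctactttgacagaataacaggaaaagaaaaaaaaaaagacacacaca
In Socs3 the match TTCTTAGAA began 154 bases before the start. Bcl6 start 1 held TTCTCAGAA from 118 bases before it. Bcl6 start 2 held 3 matches, TTCCTGGAA, TTCTGTGAA and TTCCGGGAA, beginning 168, 122 and 88 bases before the start, and 9 of the 32851 windows (0.0274%) held 3 or more. A match of letters is a description of the window and not a measured binding site.

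Before the results, some features of the arrays as a whole bear on them. Rbl2, which encodes p130, was lower in all tumours than in all livers (6.77 to 8.43 against 9.44 to 10.02), Rb1 was higher (8.76 to 9.38 against 7.69 to 8.33) and Rbl1, which encodes p107, overlapped (4.63 to 4.82 against 4.23 to 5.83). The sources used here do not name the deleted exons, and probes that lie outside them say nothing about the genotype. Xist, the RNA of the silenced X chromosome of females, read 6.34 and 6.39 in tumours 1 and 2 and 6.66 in liver 4, and 12.68 to 13.55 in the other 6 arrays. The Y-linked gene Eif2s3y ran the other way, at 9.16 to 10.30 in those 3 arrays and 3.55 to 4.32 elsewhere. The 10 hepatocyte markers averaged 13.19 to 13.79 in tumours and 13.83 to 13.90 in livers, and 1 of them passed, Apob at -0.61. Of the 7 endothelial markers 3 were lower, beside 17.4% of all 18193 genes by the same test, with a mean level of 6.72 to 8.02 in tumours and 8.31 to 8.90 in livers. Of the 6 macrophage markers 4 were lower, at 7.21 to 9.22 against 9.30 to 10.42. Stellate cell and fibroblast markers moved both ways, 2 higher and 2 lower of 7, and bile duct markers likewise, 1 and 1 of 6; none of 8 lymphocyte and blood cell markers or 2 fat cell markers passed limma's test (0 and 1 at an unadjusted p under 0.05). RNA length was read from the Actb control as its 3′ minus its 5′ probe set on the log2 scale. Tumours gave 0.61 ± 0.079 (SD, n = 5), below every liver at 0.96 ± 0.044 (SD, n = 4), with an exact two-sided permutation p of 0.00794, which no split of 9 arrays into 5 and 4 can undercut, or 0.0159 adjusted over 2 controls. The Gapdh control ran the other way: tumours gave -0.21 ± 0.027 (SD, n = 5) beside a liver value of -0.28 ± 0.049 (SD, n = 4), with overlap (exact two-sided permutation p = 0.0635, the same after adjustment), so the controls differed in direction. The part of these features in the results was not tested.

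Among the 8 measured genes, Ghr and Socs2 were lower in the tumours, Stat5a was higher, and Jak2, Stat5b, Socs3, Cish and Bcl6 did not pass the test. The test was limma's on the log2 values with Benjamini-Hochberg adjustment over all 18193 genes and a threshold of 0.05, and every adjusted p of a gene below comes from it unless another test is named. The 3 genes past the threshold were 37.5% of the 8, beside 33.5% of all genes (16.1% higher and 17.4% lower), so the share of changed members was close to the background. Scaling moved these counts: centred on the median of housekeeping genes, 0 of the 8 were higher and 4 lower, and of all genes 908 were higher and 13435 lower, in place of 2926 and 3165. That reference was itself not level between the groups. Of the 11 housekeeping genes, 5 passed as higher in tumours and 1 as lower, with a median difference of 0.28. The median log2 difference of the 8 measured genes was -0.19 and that of all genes -0.081. Tumour and liver values did not overlap for Ghr, Jak2 and Stat5a, 3 of 8, beside 29.8% of all genes. Over the 21 probe sets, 2 were higher, 6 lower and 13 not past, with 27.9% of 45037 probe sets past when each was fitted on its own.

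**Figure D1:**
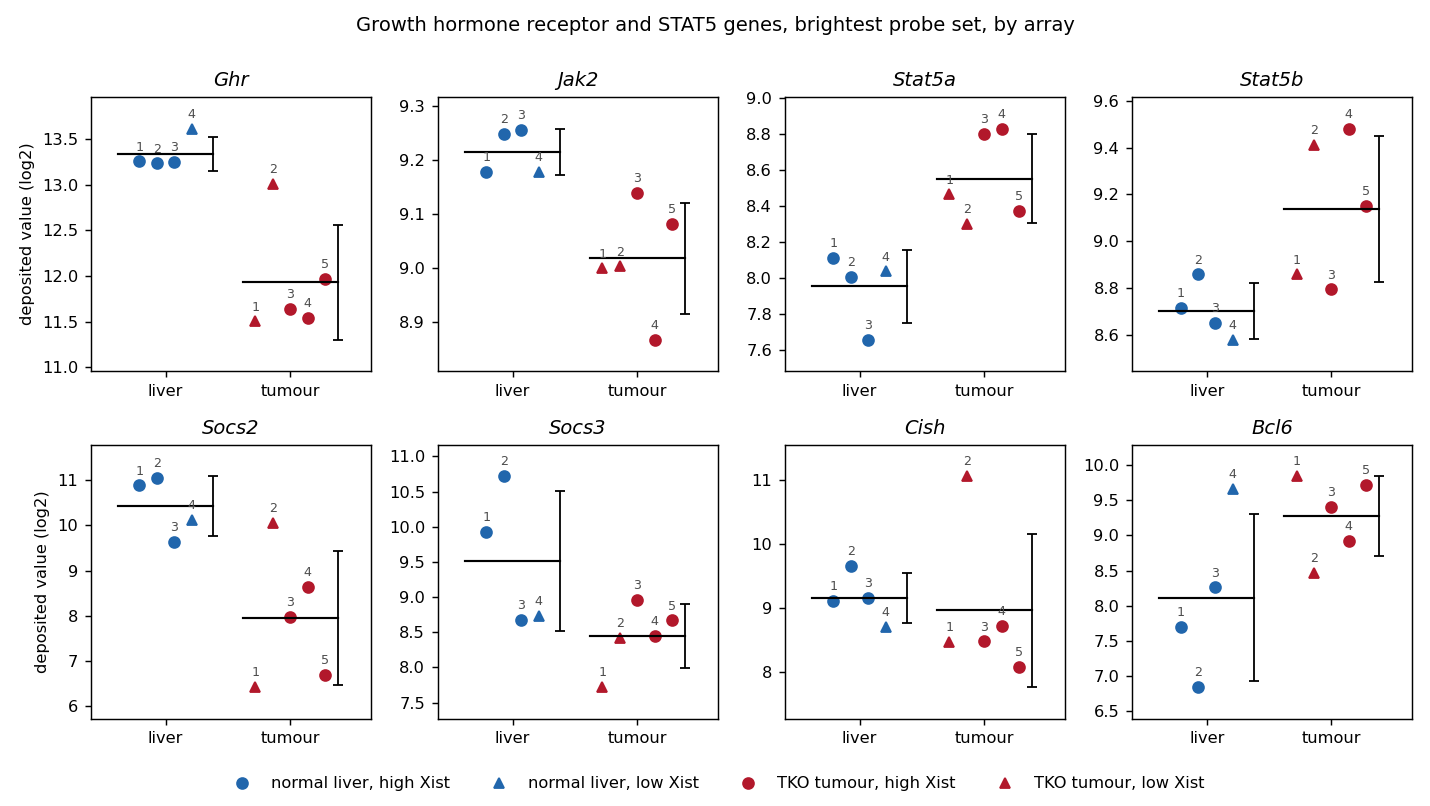
Deposited log2 value (y axis, scale differs between panels) of the brightest probe set of each of the 8 measured genes in 4 normal livers (blue) and 5 tumours (red), numbered by replicate, with triangles for arrays of low Xist; lines are group means and bars 1 SD. Ghr lies lower in all 5 tumours, Stat5a higher in all 5, and tumour 2 stands above the other tumours for Ghr, Socs2 and Cish.

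Ghr, the growth hormone receptor gene, was 2.65-fold lower in the tumours. Its log2 values were 11.50, 13.00, 11.64, 11.55 and 11.97 in tumours 1 to 5 and 13.25, 13.23, 13.25 and 13.61 in livers 1 to 4. All tumours lay below all livers, with tumour 2 close to the lowest liver and the other 4 tumours more than 1 log2 unit below it. The difference was -1.41 (SE 0.29, adjusted p = 0.00605). The other 2 probe sets of Ghr gave larger differences in the same direction, -2.20 (SE 0.29) and -1.68 (SE 0.34), with adjusted p-values over all probe sets of 0.000725 and 0.00592. In both of them tumour 2 was again the highest tumour, at 12.03 and 11.18, and again below every liver. The call held with each of the 9 arrays left out, with differences from -1.67 to -1.30. In bulk tissue fewer cells of a type and less RNA per cell cannot be told apart, and this applies to every difference given here.

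The profiles nearest to that of Ghr over the 9 arrays, by the root mean square difference after each gene was centred on its mean, were those of Kif1b at 0.17 and Pik3r1 at 0.18. Kif1b encodes a kinesin motor and Pik3r1 a regulatory subunit of phosphoinositide 3-kinase. They differed by -1.53 and -1.24 between tumours and livers.

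Jak2, the kinase gene of the receptor, differed little in size and did not pass. It read 8.999, 9.003, 9.14, 8.87 and 9.08 in tumours 1 to 5 and 9.18, 9.25, 9.26 and 9.18 in livers 1 to 4. The tumours all lay below the livers, by a margin smaller than the range among tumours. The difference was -0.20 (SE 0.074, 95% interval -0.36 to -0.029, adjusted p = 0.0690), and the other probe set gave -0.15. It passed when arrays were centred on their 75th percentile (-0.38) or on the median (-0.89) or mean (-0.41) of housekeeping genes. Those settings moved the median of all genes from -0.081 to -0.26, -0.78 and -0.30, respectively.

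Stat5a and Stat5b encode the closely related transcription factors that the receptor activates. Stat5a was 1.52-fold higher in the tumours, at 8.47, 8.30, 8.80, 8.83 and 8.37 in tumours 1 to 5 and 8.11, 8.01, 7.66 and 8.04 in livers 1 to 4. The groups did not overlap, and the difference was 0.60 (SE 0.15, adjusted p = 0.0123). Its other probe set gave 1.27 (SE 0.12, adjusted p over all probe sets 0.000104), from 7.06 to 7.30 in tumours and 5.59 to 6.14 in livers. Centred on the median of 11 housekeeping genes, which moved the median of all genes to -0.78, the difference of Stat5a was -0.095 and did not pass, and centred on their mean it was 0.39 (adjusted p = 0.0709).

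Stat5b read 8.86, 9.41, 8.79, 9.48 and 9.15 in tumours 1 to 5 and 8.72, 8.86, 8.65 and 8.58 in livers 1 to 4. The lowest tumours fell within the range of the livers, and the difference of 0.44 (SE 0.16, adjusted p = 0.0570) did not pass. It passed without tumour 1 (0.51) or tumour 3 (0.52). The 2 probe sets of Stat5b disagreed in sign, the other one giving -0.19 (adjusted p over all probe sets 0.106). Centring on the housekeeping median turned the difference to -0.26. The nearest profiles to Stat5a were those of Pald1 at 0.13, a phosphatase-like protein gene, and the casein kinase gene Csnk1g2 at 0.13.

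Socs2, whose product binds the activated receptor and limits growth hormone action, was 5.53-fold lower on average and varied most among the tumours. Its values were 6.42, 10.05, 7.98, 8.63 and 6.70 in tumours 1 to 5 and 10.88, 11.05, 9.64 and 10.12 in livers 1 to 4. Tumour 2 lay among the livers and the other 4 tumours below all of them, over a range of 3.62 log2 units among tumours and 1.41 among livers. The difference was -2.47 (SE 0.70, adjusted p = 0.0251). That call was lost without tumour 5 (-2.15), liver 1 (-2.32) or liver 2 (-2.26), with adjusted p-values of 0.0546 to 0.0701. Of the 6 probe sets of Socs2, 3 were lower and 3 did not pass. A bright one gave -2.50 (SE 0.71), and a dim one gave -0.67 (SE 0.11) with all tumours, at 4.33 to 4.59, below all livers, at 4.89 to 5.44. The nearest profiles, Gas1 at 0.60 and Dleu2 at 0.64, were farther from Socs2 than the neighbours of Ghr and Stat5a were from those genes.

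Socs3, a feedback inhibitor that also answers to interleukin-6, did not pass. Its values were 7.72, 8.42, 8.96, 8.45 and 8.67 in tumours 1 to 5 and 9.93, 10.72, 8.68 and 8.73 in livers 1 to 4. Livers 1 and 2 stood above every tumour, while livers 3 and 4 lay within the tumours' range. The difference was -1.07 (SE 0.43, adjusted p = 0.0854), from a probe set that can cross-hybridise with similar sequences. Another probe set of that kind gave -0.41, and the remaining one gave -0.32. Without liver 2 the difference was -0.67 (adjusted p = 0.187). It passed when arrays were centred on the 75th percentile (-1.25) or on the median (-1.76) or mean (-1.28) of housekeeping genes.

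Cish, a feedback inhibitor induced by STAT5, did not pass, and its tumour values spread over 2.98 log2 units. It read 8.48, 11.05, 8.48, 8.72 and 8.08 in tumours 1 to 5 and 9.11, 9.65, 9.15 and 8.70 in livers 1 to 4. Tumour 2 was the highest of all 9 arrays, 2.62 log2 units above the mean of the other tumours. The difference was -0.19 (SE 0.55, 95% interval -1.44 to 1.05, adjusted p = 0.806). Without tumour 2 it was -0.72 and passed (adjusted p = 0.0297), and without tumour 5 it was 0.029. It also passed without the 3 arrays of low Xist (-0.88, adjusted p = 0.0272), where 2 of the 8 genes were higher and 3 lower. Within the arrays of low Xist, with their single liver, the difference was 1.06. Tumour 2 also had the highest Ghr and Socs2 of the 5 tumours.

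Bcl6, a transcriptional repressor that growth hormone lowers in the liver, did not pass. It read 9.84, 8.47, 9.40, 8.93 and 9.71 in tumours 1 to 5 and 7.70, 6.85, 8.26 and 9.66 in livers 1 to 4. Liver 4, the liver with low Xist, lay among the tumours, and the other 3 livers lay below all of them. The difference was 1.15 (SE 0.52, adjusted p = 0.116), and the other probe set gave 0.74. It passed without liver 4 (1.67, adjusted p = 0.0158), without the 3 arrays of low Xist (1.75, adjusted p = 0.0175) or with array weights (1.52, adjusted p = 0.0314). Without liver 2 it was 0.73 (adjusted p = 0.274). Within the arrays of low Xist the difference was -0.51 and within those of high Xist 1.75. The gap between these differences was -2.26 (95% interval -4.22 to -0.29), with an adjusted p of 0.661 for limma's interaction of group with Xist class. That interaction passed for 0 of the 8 genes, with 1 of them, Bcl6, at an unadjusted p under 0.05, beside 0.0989% of all genes past the adjusted threshold.

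As a check that shares no spread between genes, an exact two-sided permutation test over all splits of the arrays into 5 and 4 was run for each of the 8 genes, without adjustment. It gave an exact p of 0.00794 for Stat5a, 0.0159 for Ghr and for Jak2, and 0.0238 for Socs2. The exact p was 0.0556 for Stat5b and for Socs3, 0.0952 for Bcl6 and 0.841 for Cish.

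**Figure D2:**
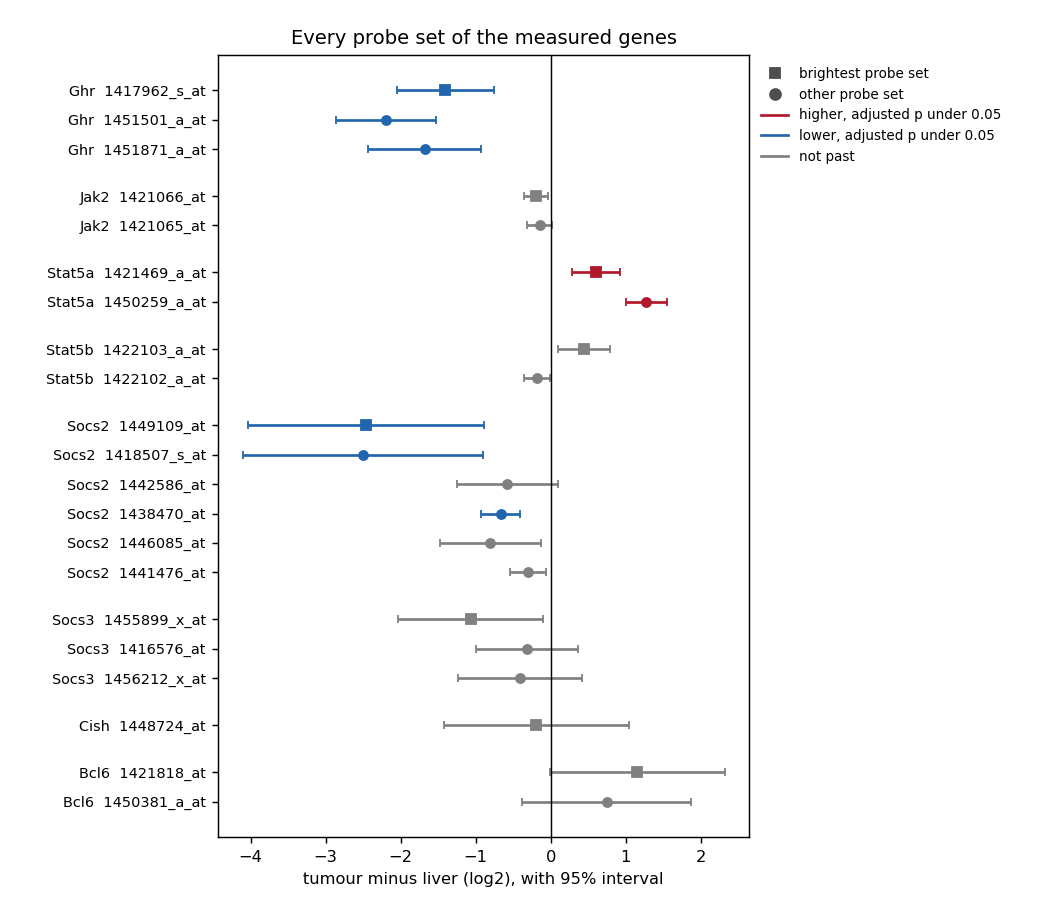
Tumour minus liver difference (x axis, log2) with its 95% interval for all 21 probe sets of the 8 measured genes, each fitted on its own; squares are the brightest probe set of a gene, and colour marks those past an adjusted p of 0.05 over all probe sets. All 3 probe sets of Ghr lie below 0 and both of Stat5a above it, while the 2 of Stat5b lie on opposite sides.

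The hormones themselves are made in the pituitary. Gh, the growth hormone gene, had a tumour mean of 6.40 ± 0.15 (SD, n = 5) beside a liver mean of 6.50 ± 0.13 (SD, n = 4) and did not pass (adjusted p = 0.435). Its 3 other probe sets, each fitted on its own, passed as lower (-0.51 to -0.33). Gh also passed as lower with the mean of its probe sets (-0.36), the 75th percentile (-0.28) or the housekeeping median (-0.80). Prl, the prolactin gene, had a tumour mean of 5.16 and a liver mean of 5.45. Both hormone genes thus read below 6.74, the median of the probe sets that named 1 gene. Prl differed by -0.28 (SE 0.081, adjusted p = 0.0250), a call that was lost without tumour 1, tumour 5, liver 2, liver 3 or liver 4 (-0.27, -0.27, -0.27, -0.26 and -0.25).

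None of the 7 other JAK and STAT genes measured passed limma's test, beside 33.5% of all genes, with 2 of 7 at an unadjusted p under 0.05 and a median difference of 0.16. The kinase genes Jak1, Tyk2 and Jak3 differed by -0.0044, 0.16 and 0.42. Stat4, which interleukin-12 activates, gave -0.33, Stat3, the factor downstream of interleukin-6, 0.13, Stat2 of the interferon pathway 0.44 and Stat6, which interleukin-4 activates, 0.47. Calls of this group depended on the setting: Stat4 passed without tumour 3 (-0.42), Jak3 without tumour 2 (0.53) and Stat6 without tumour 1 (0.60). Centred on the housekeeping median, Jak1 (-0.70), Tyk2 (-0.54), Stat3 (-0.57) and Stat4 (-1.03) passed as lower.

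Other class I and II cytokine receptors, which signal through JAK kinases, moved both ways. Of 18, 2 were higher, 4 lower and 12 did not pass, with a median of 0.054, beside 16.1% of all genes higher and 17.4% lower. The count of higher receptors was 1 without liver 1 or liver 4 and 4 without tumour 3. Lifr, the leukaemia inhibitory factor receptor gene, fell by 2.76 (SE 0.30), from 11.21 to 12.44 in livers to 8.65 to 9.73 in tumours. Il6st, which encodes the shared signalling chain gp130, fell by 1.55 (SE 0.22) and Il13ra1, a receptor chain for interleukin-13, by 1.96 (SE 0.27). None of the tumour values of these 3 genes overlapped those of the livers, and all their other probe sets were lower too (2 of Lifr, 3 of Il6st and 4 of Il13ra1). Il4ra fell by 0.43 (SE 0.13), a call that was lost without tumour 1, tumour 5, liver 1, liver 2 or liver 4 (-0.36, -0.40, -0.34, -0.44 and -0.43). Its other probe sets gave -0.33 and -0.25 and did not pass. Ifngr1, an interferon gamma receptor chain, rose by 1.28 (SE 0.27), and Il10rb, shared by receptors of the interleukin-10 family, by 2.08 (SE 0.57). Il10rb was 12.98 in tumour 3 and 9.90 to 10.37 in the other tumours, and its call was lost without liver 1 (2.12) or liver 4 (1.93). The other probe set of Il10rb gave 0.42 and did not pass.

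Among 10 genes for adaptors and other kinases of the receptor, 2 were higher and 2 lower, beside 16.1% and 17.4% of all genes, with a median of -0.015. Sos1, an exchange factor that links receptors to RAS, fell by 0.99 (SE 0.15), with tumours at 8.37 to 9.08 and livers at 9.42 to 9.77, but its other 4 probe sets gave 0.047 to 0.42 and their mean with it -0.031. The kinase gene Src rose by 0.91 (SE 0.30) and the adaptor gene Shc1 by 0.43 (SE 0.14), while the docking protein gene Gab1 fell by 0.30 (SE 0.10). The other probe sets of Gab1 gave -0.14 and -0.020 and did not pass. Calls of Src, Shc1 and Gab1 were unstable: the first was lost without any of tumours 1, 3, 4 and 5 or livers 1 to 4 (0.73 to 1.03), as was that of Shc1 (0.37 to 0.49), and that of Gab1 was lost without tumours 2, 4 or 5 or livers 1, 3 or 4 (-0.31 to -0.23). The substrate genes Irs1 and Irs2 differed by -0.016 and 0.75 and did not pass.

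Of 14 other inhibitors of JAK-STAT signalling, 3 were higher, none was lower and 11 did not pass, with a median of 0.17. Of all genes, 16.1% were higher and 17.4% lower. Ptpn2, a phosphatase of JAK kinases, rose by 0.71 (SE 0.13), from 9.57 to 10.07 in livers to 10.40 to 10.83 in tumours. Pias4, a SUMO ligase that binds STAT proteins, rose by 0.64 (SE 0.12), and Socs7, of the same family as Socs2, by 0.80 (SE 0.21), though the other probe sets of Socs7 gave -0.23 to 0.56 and its call was lost without liver 2 (0.71). Centred on the housekeeping median, Ptpn2 differed by 0.018, Pias4 by -0.055 and Socs7 by 0.10. Socs1, another family member, differed by -0.11 and did not pass.

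**Figure D3:**
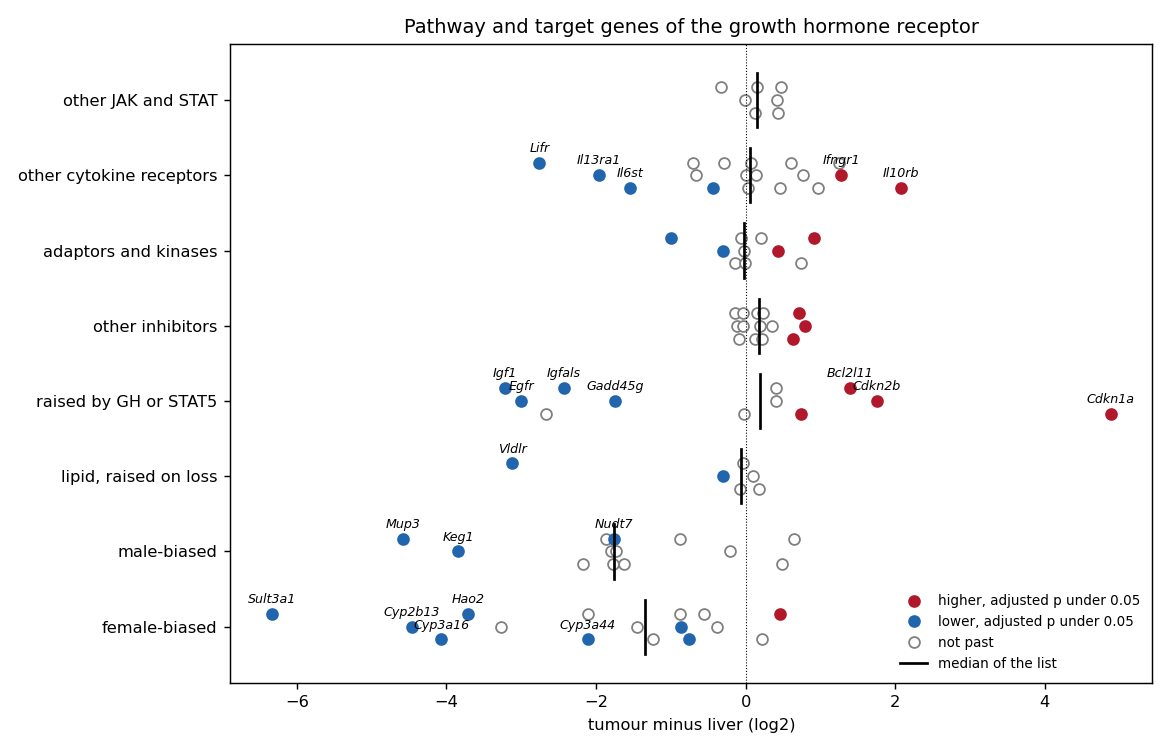
Tumour minus liver difference (x axis, log2) of each measured gene in 8 lists of pathway and target genes; filled points passed an adjusted p of 0.05, open points did not, and the black line is the median of the list. Differences in the pathway lists reach from -2.76 for Lifr to 2.08 for Il10rb, and those in the target lists from -6.33 for Sult3a1 to 4.88 for Cdkn1a.

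Genes known to be raised by growth hormone or STAT5 in the liver split into opposite directions. Of 12 genes, 4 were lower, 4 higher and 4 did not pass, beside 17.4% of all genes lower and 16.1% higher, and the median was 0.19. The 4 lower genes were Igf1 and Igfals, which encode the circulating growth factor IGF1 and the protein that carries it in blood, the epidermal growth factor receptor gene Egfr, and the stress response gene Gadd45g. The 4 higher genes were the cell cycle inhibitors Cdkn1a and Cdkn2b and the cell death genes Bbc3 and Bcl2l11, which are also known to answer to signals other than STAT5. Onecut1, Pim1, Bcl2l1 and Nox4 differed by 0.40, 0.41, -0.023 and -2.68 and did not pass.

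Igf1 read 10.68, 11.74, 9.77, 9.69 and 10.49 in tumours 1 to 5 and 13.66, 13.84, 13.62 and 13.65 in livers 1 to 4. Every tumour lay well below the livers, and the difference was -3.22 (SE 0.37, adjusted p = 0.000276), a 9.34-fold decrease that its 3 other probe sets gave as well (-3.24 to -3.19). Igfals read 9.05, 9.78, 8.50, 9.13 and 8.27 in tumours 1 to 5 and 11.49, 11.59, 11.10 and 11.32 in livers 1 to 4, a difference of -2.43 (SE 0.28). For both genes tumour 2 had the highest tumour value, as it had for Ghr, Socs2 and Cish.

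Egfr differed by -3.00 (SE 0.56), from 10.12 to 12.93 in livers to 7.35 to 9.37 in tumours, and 5 of its 6 other probe sets were lower. Gadd45g differed by -1.74 (SE 0.45), overlapped between groups through tumour 4 at 8.72, and lost its call without liver 1 (-1.48). Cdkn1a differed by 4.88 (SE 0.44) and Bcl2l11 by 1.40 (SE 0.28), both with all tumours above all livers. Bbc3 rose by 0.74 (SE 0.20) and lost its call without liver 3 (0.65) or liver 4 (0.68). Cdkn2b rose by 1.75 (SE 0.51) and lost its call without tumour 1 (1.51) or any of livers 1 to 4 (1.69 to 1.78).

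**Figure D4:**
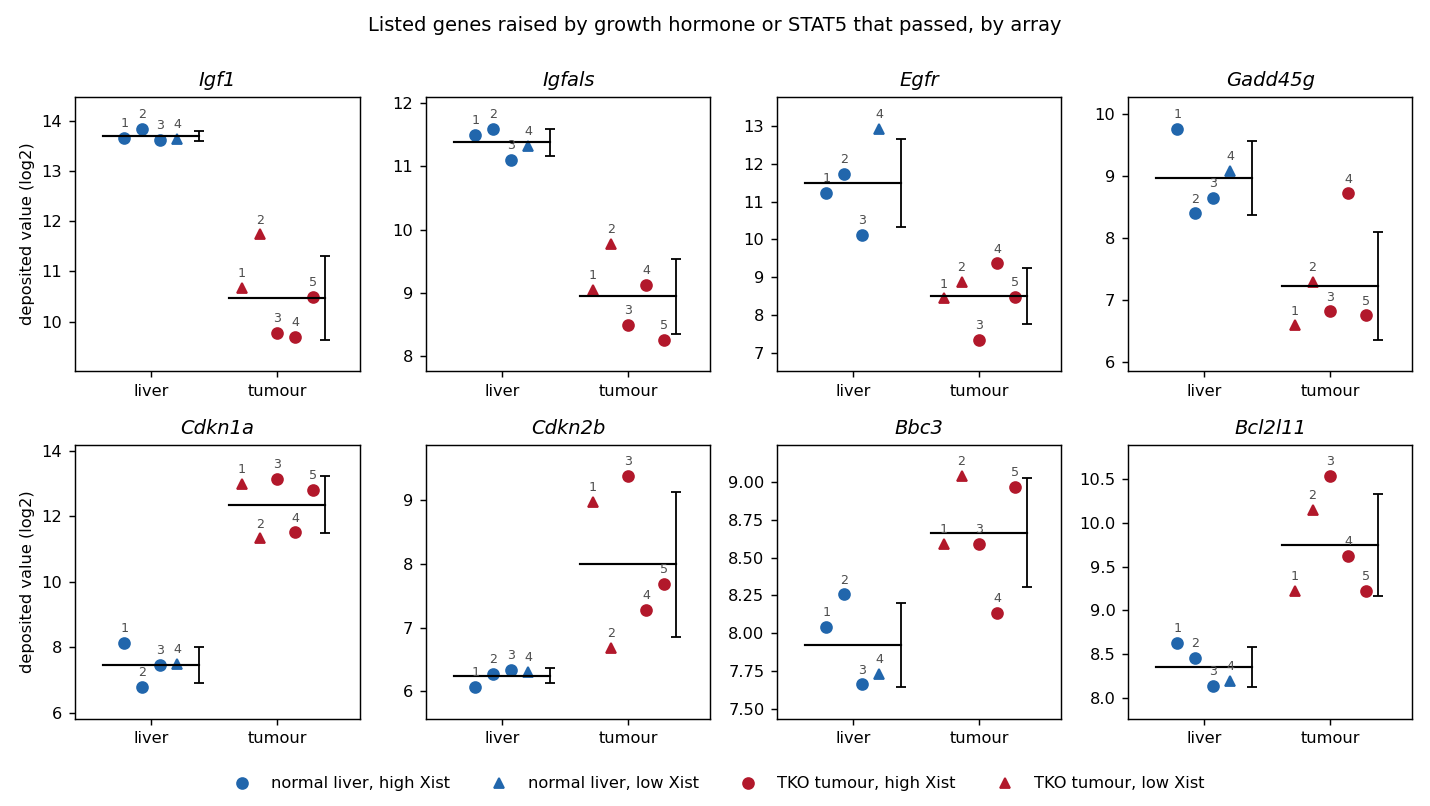
Deposited log2 value (y axis, scale differs between panels) of the 8 listed genes raised by growth hormone or STAT5 that passed, in 4 normal livers (blue) and 5 tumours (red), numbered by replicate, with triangles for arrays of low Xist; lines are group means and bars 1 SD. Igf1, Igfals and Egfr lie lower in all 5 tumours, and Cdkn1a, Cdkn2b and Bcl2l11 higher in all 5.

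Of 6 lipid genes known to be higher in livers without Ghr, Jak2 or Stat5, 2 were lower, 0 were higher and 4 did not pass limma's test. Beside them, 17.4% of all genes were lower and 16.1% higher. The median of the 6 was -0.059, and no other gene of the 6 was at an unadjusted p under 0.05. Vldlr, a lipoprotein receptor gene, read 4.41 to 5.49 in tumours, 8.44 to 8.71 in livers 1 to 3 and 5.62 in liver 4, a difference of -3.12 (SE 0.61), and its 5 other probe sets were lower too. Mogat1, a monoacylglycerol acyltransferase gene, fell by 0.30 (SE 0.10), and its call was lost without tumours 1, 2, 3 or 5 or livers 1, 3 or 4 (-0.35 to -0.24). The fatty acid carrier gene Cd36 and the lipid regulator gene Pparg differed by 0.10 (SE 0.72) and -0.077 (SE 0.36).

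Genes whose sex bias in the liver depends on growth hormone set liver 4 apart from the other livers, and the tumours took no single place beside them. Of 13 male-biased genes, liver 4, with low Xist, was above livers 1 to 3 in 13, beside 32.1% of all genes. Of 16 female-biased genes, liver 4 was below livers 1 to 3 in 15, beside 27.4% of all genes. Tumours 1 and 2, also with low Xist, were both below liver 4 in 13 of the 13 male-biased genes (46.3% of all genes), but in 4 of the 16 female-biased genes, and both above it in 9 (31% of all genes). Tumours 3 to 5, with high Xist, were all below livers 1 to 3 in 14 of the 16 female-biased genes (26.2% of all genes) and in 5 of the 13 male-biased genes, with 1 of the 13 above (21.5% of all genes). These counts have no test. The male-biased genes had a median difference of -3.74 within the arrays of low Xist and -0.34 within those of high Xist, and the female-biased genes 0.36 and -1.81, respectively. The group of low Xist held a single liver, so every value within it rests on liver 4. The interaction test below was added after the values of liver 4 were seen. It assumes that this liver varies as the arrays of the other classes do, and a difference between the classes cannot be told apart from liver 4 being unusual.

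Hsd3b5, a steroid dehydrogenase gene of male liver, read 13.56 in liver 4, 5.11, 5.32 and 5.49 in livers 1 to 3 and 5.17, 5.40, 5.22, 5.09 and 5.11 in tumours 1 to 5. Tumours 1 and 2 thus stood at the level of the livers with high Xist. The interaction of group with Xist class was -8.11 (95% interval -8.64 to -7.57, limma adjusted p = 3.9e-05). The same interaction passed for 5 of the 13 male-biased genes, beside 0.0989% of all genes. The others were the organic anion carrier gene Slco1a1 at -6.30, the glucuronosyltransferase gene Ugt2b38 at -5.24, the fatty acid elongase gene Elovl3 at -4.28 and Moxd1 at -3.80. In liver 4 these read 13.51, 11.02, 9.98 and 8.70, and in tumours 1 and 2 between 4.97 and 6.99. The call of Elovl3 was lost without tumour 2, tumour 5 or any of livers 1 to 3. Male-biased genes did not all read alike. For the cytochrome P450 gene Cyp4a12a all tumours were above livers 1 to 3 (5.70 to 5.90), at 8.73, 12.41, 6.42, 6.50 and 7.13. For Cyp2d9, of the same family, tumours 1, 2, 3 and 5 read 11.03, 12.14, 10.79 and 11.78, above livers 1 to 3 (8.51 to 9.65). Tumour 4 read 8.85, among those livers. For the complement gene C6 only tumour 2 was above livers 1 to 3, at 12.05 against 8.55 to 8.94. Liver 4 read 13.66 for Cyp4a12a, 14.33 for Cyp2d9 and 12.54 for C6.

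Across all 9 arrays 3 of the 13 male-biased genes were lower and none was higher, beside 17.4% and 16.1% of all genes, and the median was -1.76. Mup3, a major urinary protein gene, fell by 4.58 (SE 0.70), from 14.98 in liver 4 and 12.35 to 13.27 in the other livers to 7.84 to 10.42 in tumours, though its other probe set gave -0.51 and did not pass. The Mup genes are near-identical copies, as are several of the Cyp2b and Cyp3a genes, so signal cannot be assigned to 1 copy with certainty. Keg1 fell by 3.85 (SE 1.04) and the peroxisomal hydrolase gene Nudt7 by 1.76 (SE 0.52). Keg1 lost its call without liver 4 (-3.32), and Nudt7 lost it without tumours 1, 3 or 5 or livers 2, 3 or 4 (-1.86 to -1.27).

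Sult3a1, a sulfotransferase gene of female liver, read 12.56, 12.80 and 11.09 in livers 1 to 3, 4.43 in liver 4 and 3.89, 4.05, 3.66, 3.90 and 3.95 in tumours 1 to 5. The interaction was 7.85 (95% interval 6.11 to 9.59, limma adjusted p = 0.0150), and tumours 3 to 5 lay near liver 4. These low values fell around the range of the bacterial TrpnX control, 3.69 to 4.36, which has no target in mouse RNA, so the full size of the difference was not measurable. It passed for 3 of the 16 female-biased genes, with the cytochrome P450 gene Cyp2b13 at 6.35 and the peroxisomal transporter gene Abcd2 at 4.59. Cyp2b13 read 12.40 to 12.86 in livers 1 to 3, 6.31 in liver 4 and 6.08 to 7.49 in tumours. Abcd2 differed in kind: at 8.22 to 9.43 all tumours stood above liver 4, at 4.49, and below the other livers, at 9.92 to 10.13. The interaction call of Sult3a1 was lost without tumour 4, tumour 5 or liver 1, and that of Cyp2b13 without tumour 4, tumour 5 or any of livers 1 to 3.

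Across all 9 arrays 7 of the 16 female-biased genes were lower and 1 higher, beside 17.4% and 16.1% of all genes, with a median of -1.35. The lower count was 14 without liver 4, the same without all 3 arrays of low Xist, 4 without tumour 1 or liver 1 and 3 without tumour 5, liver 2 or liver 3. Besides Sult3a1 at -6.33 and Cyp2b13 at -4.46, the lower genes were the cytochrome P450 genes Cyp3a16 at -4.07 and Cyp3a44 at -2.11, the hydroxyacid oxidase gene Hao2 at -3.71, the monooxygenase gene Fmo2 at -0.86 and the neurotrophin receptor gene Ntrk2 at -0.76. With single arrays left out, the calls of Sult3a1 and Ntrk2 held each time. Other calls were lost without the arrays named: Cyp2b13 tumour 5 or livers 1 to 3 (-4.33 to -3.87), Cyp3a16 livers 2 or 3 (-3.56 and -3.12), Cyp3a44 tumours 1 or 5 or liver 2 (-2.13 to -1.89), Fmo2 tumours 1, 3 or 5 or livers 1 or 3 (-0.84 to -0.68) and Hao2 tumours 1, 3, 4 or 5 or livers 1 to 3 (-3.75 to -2.97). The higher gene was Cux2, a female-specific repressor of male genes, at 0.47 (SE 0.10), but its other 2 probe sets gave -0.73 and -2.98, so its direction depended on the probe set.

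**Figure D5:**
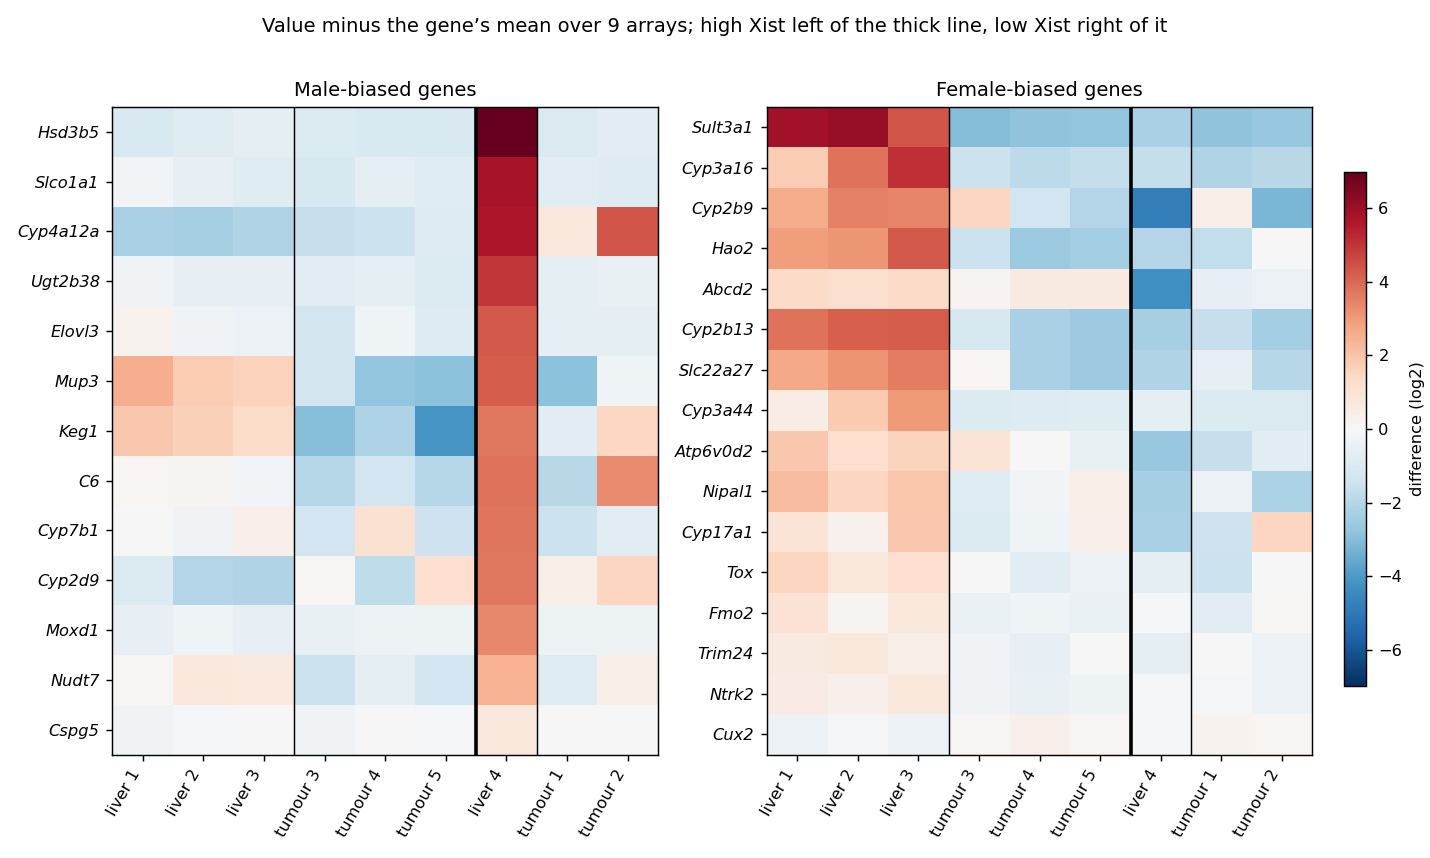
Value of each measured sex-biased gene minus its mean over the 9 arrays (colour, log2; red above the mean, blue below), with arrays of high Xist on the left of the thick line and arrays of low Xist on the right. Liver 4 is above livers 1 to 3 in all 13 male-biased genes, and tumours 1 and 2 are below it in the same 13; tumours 3 to 5 lie below livers 1 to 3 in 14 of 16 female-biased genes.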

How the data were processed

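RNA was isolated with Trizol and amplified repeatedly with a RiboAmp kit, per the labels' protocols, and hybridised to 9 arrays. The authors deposited a log2 value for each probe set on each array. The submitters' processing notes name RMA, without a version or settings. RMA as commonly run normalises quantiles between arrays, which can hide a general shift, and compresses differences near background. The values ran from 3.13 to 15.5 with array medians of 6.22 to 6.27, and precision is limited by the number of arrays.

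Of 45101 probe sets, 34945 named 1 gene in the platform annotation, 932 several and 9160 none, and 64 were controls. An unlisted probe set is unnamed here, not without a gene. A match by gene identifier to RefSeq (GRCm38.p6) found 34741 of these symbols and changed 0.

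Groups came from the sample titles. The test was two-sided, by lmFit and eBayes of limma 3.58.1 in R 4.3.3, with no covariates, once over 18193 genes and once over 45037 probe sets. The interaction of group with Xist class, differences within the classes and centring on the housekeeping mean were added after seeing the data. On simulated data for the 18193 genes of the tumour and liver comparison, planted changes of 0.5, 1 and 2 log2 units were found in 31.3% of 67, 71.6% of 67 and 90.9% of 66 genes, and 7 unchanged genes were called. The interaction test found 88% of 100 genes with a planted interaction of 4, and called 2 others. That planted interaction was added to the tumours of low Xist, in noise with the same spread for all arrays of a gene. The simulation therefore cannot show how the interaction test behaves when the lone liver of low Xist is unusual. The remaining steps used Python 3.11.15 (numpy 2.4.6, pandas 2.3.3, matplotlib 3.10.9).

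The genes and lists were chosen with earlier results of these data known. The rule for named genes took the pathway genes above, up to 4 genes of each list by adjusted p (3 in the direction most passing genes took and 1 the other way), lists of 8 genes or fewer whole, and the 2 nearest profiles of each gene that passed. Other list genes past the threshold, those with a passing interaction, and genes given as not past in lists of more than 8 were named after their values were seen. Same-numbered arrays of the 2 groups had correlations of their deviations from the group means of -0.13, -0.067, 0.18 and -0.12, so the numbers were not taken as pairs.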

Additional observations from a re-analysis of the deposited data

Results flagged for a closer look

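In 24 of 140 groups of values, 1 array stood apart from the others by more than Dixon's critical value. Chance flags about 1 independent group in 20, but the count of 24 cannot be set against that rate. The groups include genes named for a passing interaction, which rests on liver 4, and several probe sets of the same gene. Liver 4 was the array apart in 12 of the 24 flagged groups and tumour 2 in 4. The sources of these gaps were not tested.

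Among the pathway genes, tumour 2 stood apart for Cish at 11.05, for 2 probe sets of Ghr at 12.03 and 11.18, and for a dim probe set of Socs2 at 4.43. Liver 4 stood apart for 2 probe sets of Ghr, at 13.61 and 11.84, and tumour 1 was low for a probe set of Socs3 at 6.84.

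Among the listed genes, liver 4 was high for the male-biased genes Hsd3b5 at 13.56, Slco1a1 at 13.51, Ugt2b38 at 11.02, Elovl3 at 9.98 and Moxd1 at 8.70. It was low for the female-biased genes Cyp2b13 at 6.31 and Abcd2 at 4.49, and also for Ptpn2 at 9.57, Il10rb at 8.24 and Vldlr at 5.62. Tumour 3 stood apart for Il10rb at 12.98, Gh at 6.14, Vldlr at 5.49 and Moxd1 at 4.82. Liver 2 stood apart for Il13ra1 at 10.54 and Sos1 at 9.42, and liver 1 for Stat2 at 8.14.

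For 8 listed genes limma's interaction of group with Xist class passed. The class of low Xist holds 1 liver, whose spread is assumed to be that of the other arrays, so a difference between the classes cannot be told apart from liver 4 being unusual. The interaction was -8.11 for Hsd3b5, -6.30 for Slco1a1, -5.24 for Ugt2b38, -4.28 for Elovl3 and -3.80 for Moxd1 among male-biased genes. It was 7.85 for Sult3a1, 6.35 for Cyp2b13 and 4.59 for Abcd2 among female-biased genes.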

How the results depend on the processing

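Over 20 other settings, 9 of which left out 1 array, 839 of 1016 differences of 51 named genes kept their direction and their side of the threshold. The rest were 128 that no longer passed, 24 that newly passed and 25 that changed sign. The cause of these changes was not tested. Ghr, Igf1, Igfals, Egfr, Lifr, Il6st, Il13ra1, Cdkn1a, Bcl2l11, Vldlr, Mup3, Ntrk2 and Sult3a1 stayed past the threshold in the same direction in each of these settings.

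The number of pathway genes higher in tumours, 1, was 0 with arrays centred on the median or the mean of housekeeping genes, 2 with array weights, 2 without the arrays with low Xist and 1 to 2 with single arrays left out. The number lower, 2, was 4 when the 75th percentile centred the arrays, 4 on the housekeeping median, 4 on the housekeeping mean and 1 to 3 with single arrays left out. Of all genes, 2926 were higher and 3165 lower. With the housekeeping median these counts were 908 and 13435. The lower count was 8040 with the 75th percentile and 7637 with the housekeeping mean. With single arrays left out, 2348 to 3251 genes were higher and 2284 to 3110 lower. With every probe set fitted on its own, 6076 of 45037 probe sets were higher and 6509 lower, a count of probe sets and not of genes. Interactions past the threshold fell from 5 to 3 of the male-biased genes without dim genes, and ranged from 4 to 6 with single arrays left out and from 1 to 4 for female-biased genes, where all arrays gave 3. The interaction could not be fitted without liver 4 or without the arrays with low Xist, and was not run with Xist as a covariate or with the replicate block.

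With the replicate block, which drops tumour 5 because livers run to number 4, 0 pathway genes were higher and 1 was lower, and 1531 of all genes were lower. Stat5a then gave 0.65 (limma adjusted p = 0.0590), Socs2 -2.15 (limma adjusted p = 0.0652) and Cish 0.029. With the housekeeping median Stat5a gave -0.095, Stat5b -0.26, Jak3 -0.27, Tyk2 -0.54, Stat2 -0.26, Stat3 -0.57, Stat6 -0.22, Shc1 -0.27, Pias4 -0.055 and Cux2 -0.23, of which Tyk2 and Stat3 passed as lower. Of the same genes, Stat5a, Shc1, Pias4 and Cux2 passed as higher with the deposited scaling. With the housekeeping mean Tyk2 gave -0.057 and Stat3 -0.086, and with the 75th percentile -0.023 and -0.051. With the mean of a gene's probe sets Jak1 gave 0.095, Tyk2 -0.088, Stat3 -0.046 and Cux2 -1.08, which passed as lower (limma adjusted p = 0.0188), and with array weights Jak1 gave 0.012. With single arrays left out, Cish ranged from -0.72 to 0.029 (highest without tumour 5), Jak1 from -0.059 to 0.056 (above 0 without tumour 4, liver 1 or liver 2) and Stat3 from -0.051 (without liver 4) to 0.32.

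RMA values near the TrpnX control understate differences, which limits the dim probe sets of Socs2 and the low values of the sex-biased genes.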

Other observations

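Beyond the listed genes, 10 others passed the same interaction test over all 18193 genes; they were chosen after their values were seen. Sult2a2, a sulfotransferase gene, gave 10.26 (95% interval 8.99 to 11.52) and the organic anion carrier gene Slc22a26 gave 5.83, both in the direction of the female-biased genes. In the direction of the male-biased genes, the lipocalin gene Obp2a gave -5.89, Susd4 -2.93, Dpy19l3 -2.88, Lama3 -2.81, 4933438K21Rik -2.19, Capn8 -2.12, Sema3e -1.75 and Cyp2u1 -1.31. As for the listed genes, these values rest on liver 4 as the single liver with low Xist.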
